A study of Mus musculus with 4 samples.

Results

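The superoxide dismutases Sod1, Sod2 and Sod3, the peroxide-removing enzymes Cat, Gpx1, Gpx3 and Prdx1, and the heme oxygenase Hmox1 were followed across cell types and tissue at a tendon injury that forms heterotopic ossification (HO). The 8 genes were taken by symbol from the deposited feature lists. All 8 were among the 32285 features of the scRNA-seq tables, and 7 were among the 19465 features of the Visium tables, where Prdx1 was not analysed. They had been chosen by their levels across these same cell types and spots, as known from an earlier look at the data, so the levels are given as a description, with no test.

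The study examined mesenchymal progenitor cells (MPCs) after burn/tenotomy (BT) injury, in which a burn is combined with transection of the Achilles tendon. For scRNA-seq, unsorted cells of the injury site were taken at day 7 from Hoxa11CreER;ROSA-LSL-TdTomato;Hif1a fl/fl mice, whose age the labels used here do not give, that had received tamoxifen at 75 mg/kg daily for 5 days and a washout of 9 days, and 2 libraries were made, one from pooled replicates 1 and 2 ("pooled library") and one from replicate 3 ("replicate 3 library"). For Visium, 2 sections of tendon (A1 and B1) came from wild-type C57BL/6 mice of 10 weeks at day 7 after the same injury. Both libraries carry the floxed Hif1a and tamoxifen-driven Cre, which acts only in Hoxa11 lineage cells, and Cre-negative controls are not analysed here. No uninjured tissue is analysed here either, so the comparisons are between cell types and between regions, not between genotypes or times. Nothing in the labels says whether both sections came from separate mice. The p-values are no measure of the spread between mice. They rest on the spread left between class or region sums, with the sample as a block, and this spread is shared over genes.

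Superoxide dismutases turn superoxide, a by-product of respiration and the product of NADPH oxidases, into hydrogen peroxide. Sod1 does so in the cytosol with copper and zinc, Sod2 in the mitochondrial matrix with manganese, and Sod3 outside the cell, where it is secreted and binds heparan sulfate in the matrix. Catalase breaks peroxide down in peroxisomes, Gpx1 reduces it inside cells and the secreted Gpx3 outside them at the cost of glutathione, Prdx1 reduces it in the cytosol at the cost of thioredoxin, and Hmox1 cleaves heme into biliverdin, carbon monoxide and iron.

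Stretches that set the secreted apart from the intracellular forms are shown first. They were read from the GRCm38 reference with its GENCODE annotation, 5′ to 3′ on the coding strand. The first 25 codons of the mitochondrial and the secreted dismutase, with the start codon in capitals, come from exons 1 and 2 of Sod2 (chr17:13008046-13008235, + strand, spliced) and exon 2 of Sod3 (chr5:52367961-52368035, + strand).
Sod2: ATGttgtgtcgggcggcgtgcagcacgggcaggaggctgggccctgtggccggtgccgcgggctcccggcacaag
Sod3: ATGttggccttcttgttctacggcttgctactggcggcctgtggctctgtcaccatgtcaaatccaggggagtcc
Codons with T in the second position, which encode the hydrophobic residues of the genetic code, numbered 10 of 25 in Sod3, whose protein starts with a secretory signal peptide, against 4 in Sod2, whose protein starts with a mitochondrial presequence. The Sod3 coding sequence of 756 bases lies in 1 of the gene's 2 exons, whereas the coding sequence of Sod2 (669 bases) belongs to a gene of 5 exons.

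Gpx1 and Gpx3 both carry a TGA codon, in capitals here, that the annotation marks as selenocysteine, the catalytic residue, at codon 47 of Gpx1 (window chr9:108339427-108339477, + strand, exon 1) and codon 73 of Gpx3 (window chr11:54907232-54908542, + strand, exons 2 and 3, spliced).
Gpx1: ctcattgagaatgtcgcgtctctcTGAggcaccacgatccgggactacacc
Gpx3: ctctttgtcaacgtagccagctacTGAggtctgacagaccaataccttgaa
The windows shared 24 of 51 bases (47.1%) at matching positions. The coding sequence of Cat ends in exon 13 (chr2:103454756-103454803, - strand) with the 4 codons, in capitals, that hold its peroxisomal targeting signal, followed by the stop codon.
Cat: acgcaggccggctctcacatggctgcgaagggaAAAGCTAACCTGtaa
Whole genes lie at chr17:13006846-13040063 (Sod2, + strand), chr5:52363791-52371418 (Sod3, + strand), chr2:103453849-103485160 (Cat, - strand), chr9:108338903-108340343 (Gpx1, + strand), chr11:54902453-54910377 (Gpx3, + strand), chr4:116685544-116700822 (Prdx1, + strand) and chr8:75093621-75100589 (Hmox1, + strand).

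The libraries held 31536402 and 23379476 UMIs (unique molecular identifiers, 1 per captured RNA molecule), and the sections 2259744 and 2308754. After filtering, 1274 and 793 cells and 3504 and 3185 spots were kept, with median UMIs of 13182.5 and 17356 per cell and 460 and 518 per spot, and the libraries shared 1 cell barcode. Clusters were named only from marker genes, and 9 classes held at least 20 cells in both libraries. They were MPC-like (168 and 144 cells in the pooled and the replicate 3 library), macrophage-like (188 and 110), fibroblast-like (102 and 80), T or NK-like (116 and 45), endothelial-like (97 and 57), keratinocyte-like (73 and 55), smooth muscle or pericyte-like (95 and 53), dendritic-like (46 and 21) and Schwann-like (30 and 24). The MPC-like cluster was led by Tnmd, Thbs4 and Fmod and the fibroblast-like one by Cxcl5, Cxcl14 and Sfrp2, and the MPC marker list summed to 21980 and 21690 CPM (counts per 1000000 UMIs) in the former and still 8784 and 10780 CPM in the latter. The fibroblast marker list summed to 2728 and 3442 CPM in MPC-like cells. In fibroblast-like cells it summed to 7720 and 7986 CPM, below the MPC list in the same cells. Hif1a, the floxed gene, was at 440 and 341 CPM in MPC-like cells and 559 and 489 CPM in fibroblast-like cells, but 3′ tags do not check the deleted exon. Each UMI from a 3′ library marks 1 molecule whatever the transcript's length, and UMIs of different members were added and compared within the scRNA-seq data. Whether the transcripts of different members are captured and assigned equally well was not tested, so shares between members are shares of UMIs.

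Levels below are UMIs summed over all cells of a class and divided by the class total (CPM), first for the pooled library and then for the replicate 3 library. Intervals are exact Poisson 95% intervals and cover counting error only.

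Cytosolic Sod1 was highest in dendritic-like and endothelial-like cells and lowest in keratinocyte-like cells. Its level was 152 and 219 CPM in dendritic-like cells and 185 and 159 CPM in endothelial-like cells, ranges that overlapped each other and lay above those of every other class. Macrophage-like cells followed at 118.5 and 101.6 CPM, T or NK-like cells at 111 and 79.7 CPM and Schwann-like cells at 86.1 and 93.1 CPM. The mesenchymal classes came next and could not be placed in order, with fibroblast-like cells at 68.5 and 85.1 CPM, smooth muscle or pericyte-like cells at 84.0 and 66.7 CPM and MPC-like cells at 74.7 and 65.9 CPM. Keratinocyte-like cells held 19.9 and 19.6 CPM, below all others in both libraries.

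Mitochondrial Sod2 had a different order, with smooth muscle or pericyte-like cells at the top of the 9 classes and MPC-like cells at the bottom. It reached 180 and 187 CPM in smooth muscle or pericyte-like cells and 66.6 and 50.8 CPM in MPC-like cells, and in both libraries these were the highest and the lowest class. Between them stood a run of classes whose ranges overlapped from one to the next, from macrophage-like cells (164 and 155 CPM) and keratinocyte-like cells (133 and 158 CPM) to endothelial-like cells (89.7 and 77.0 CPM). Fibroblast-like cells, at 130 and 94.0 CPM, were above MPC-like cells in both libraries.

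Extracellular Sod3 was counted almost wholly in mesenchymal classes. Fibroblast-like cells held 169 CPM (interval 156 to 183, 623 UMIs) and 143 CPM (interval 131 to 157, 482 UMIs), with a mean of 156 ± 18.3 CPM (SD, n = 2). MPC-like cells held 80.0 CPM (656 UMIs) and 66.3 CPM (484 UMIs), a mean of 73.1 ± 9.69 CPM, and smooth muscle or pericyte-like cells 71.7 CPM (140 UMIs) and 69.2 CPM (82 UMIs). The fibroblast-like values lay above both of these classes in each library, and the MPC-like and smooth muscle or pericyte-like ranges overlapped. Schwann-like cells held 3 and 9 UMIs (9.56 and 26.2 CPM). In the same cells 8 and 12 of the 14 MPC markers summed to 2276 and 2308 CPM and 6 and 8 of the 14 fibroblast markers to 822.5 and 1001 CPM, with Pdgfra and Tnmd at 0 in both libraries, and their part in the Sod3 level was not tested. In the other 5 classes the counts were at or under 3 UMIs, with 3 and 0 UMIs in endothelial-like cells, 2 and 0 in keratinocyte-like cells, and 0 in both libraries in T or NK-like, dendritic-like and macrophage-like cells. For macrophage-like cells the intervals of a count of 0 reach up to 2.13 and 2.84 CPM. On the log2(CPM + 1) scale fibroblast-like cells exceeded the mean of the other classes by 5.09 and 5.05 and MPC-like cells by 3.89 and 3.81, differences that depend on the pseudocount because several of the other classes were at 0.

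Within the smooth muscle or pericyte-like class, Sod3 was higher in the cluster led by Myh11 (105 and 158 CPM from 20 and 7 cells) than in the one led by Rgs5 and Abcc9 (62.1 and 53.0 CPM from 75 and 46 cells). Among clusters that got no class name, dividing cells led by histone genes held 34.8 CPM in each library, cells led by Coch and Crabp1 31.7 and 23.9 CPM, and cells led by Col2a1 and Col9a3 42.4 and 36.3 CPM. Each of these was below MPC-like and fibroblast-like cells. Cells led by Chil3 and F10 held 0 and 1 Sod3 UMIs, and cells led by Gzma and Xcl1 held 0 in both libraries. The remaining unnamed cluster, led by Igfbp6 (110 and 66 cells), held 4 and 14 Sod3 UMIs among 67 and 65 dismutase UMIs. Its cells had a median of 0.059 of their libraries' median UMI count. Whether its Sod3 level in CPM was also below those classes was not tested.

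**Figure D1:**
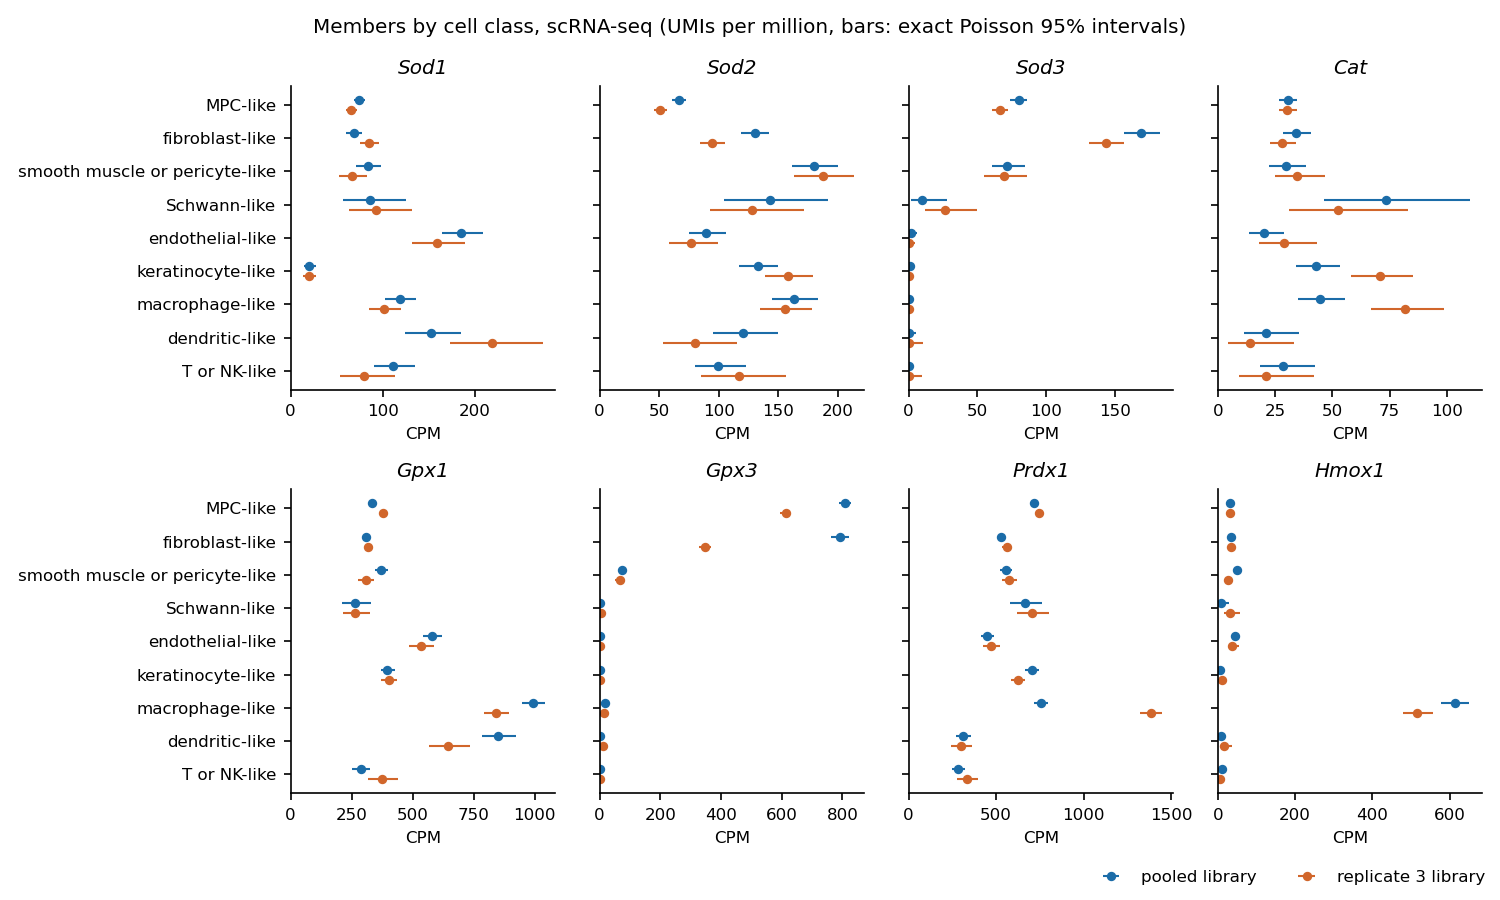
Level of each of the 8 genes in 9 marker-named cell classes, in CPM of the class (linear axes that start at 0 and differ between panels). Points are the pooled library and the replicate 3 library and bars are exact Poisson 95% intervals. Sod3 and Gpx3 are near 0 outside fibroblast-like, MPC-like and smooth muscle or pericyte-like cells (Sod3 also reaches 26.2 CPM in Schwann-like cells), and Hmox1 stands out in macrophage-like cells at 613 and 516 CPM.

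The weight of the extracellular form was read as the Sod3 share of the UMIs of all 3 dismutases. It was 46.0% (Wilson 95% interval 43.4 to 48.7) and 44.5% (41.5 to 47.4) in fibroblast-like cells and 36.1% (34.0 to 38.4) and 36.2% (33.7 to 38.8) in MPC-like cells. In smooth muscle or pericyte-like cells it was 21.3% and 21.4%, and in Schwann-like cells 4.0% and 10.6%. The shares of the 2 libraries differed by less than their intervals in each of the first 3 classes, and the 3 classes lay apart from each other. Macrophage-like cells held 0 Sod3 UMIs among 488 and 334 dismutase UMIs, for which the Wilson upper limits are 0.781% and 1.14%.

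Of all Sod3 UMIs in kept cells, MPC-like cells held 42.6% and 42.7% and fibroblast-like cells 40.45% and 42.5%, whereas these classes held 32.2% and 37.6% and 14.4% and 17.3% of all UMIs. The share of cells with a Sod3 UMI was 86.3% and 91.25% in fibroblast-like cells, 79.2% and 74.3% in MPC-like cells, 52.6% and 52.8% in smooth muscle or pericyte-like cells and 0% in macrophage-like cells. Depth differed between these classes, with median UMIs of 36255 and 43673.5 per fibroblast-like cell, 50042.5 and 50030.5 per MPC-like cell and 9298 and 12063.5 per macrophage-like cell. With every cell thinned to 2000 UMIs the shares were 25.7% and 20.5% in fibroblast-like cells, 12.5% and 13.9% in MPC-like cells and 9.47% and 13.2% in smooth muscle or pericyte-like cells, and macrophage-like cells were at 0 of 133 and 0 of 80, after 55 and 30 shallower macrophage-like cells were left out. Fibroblast-like cells had the largest share of the 9 classes in both libraries, thinned or not.

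**Figure D2:**
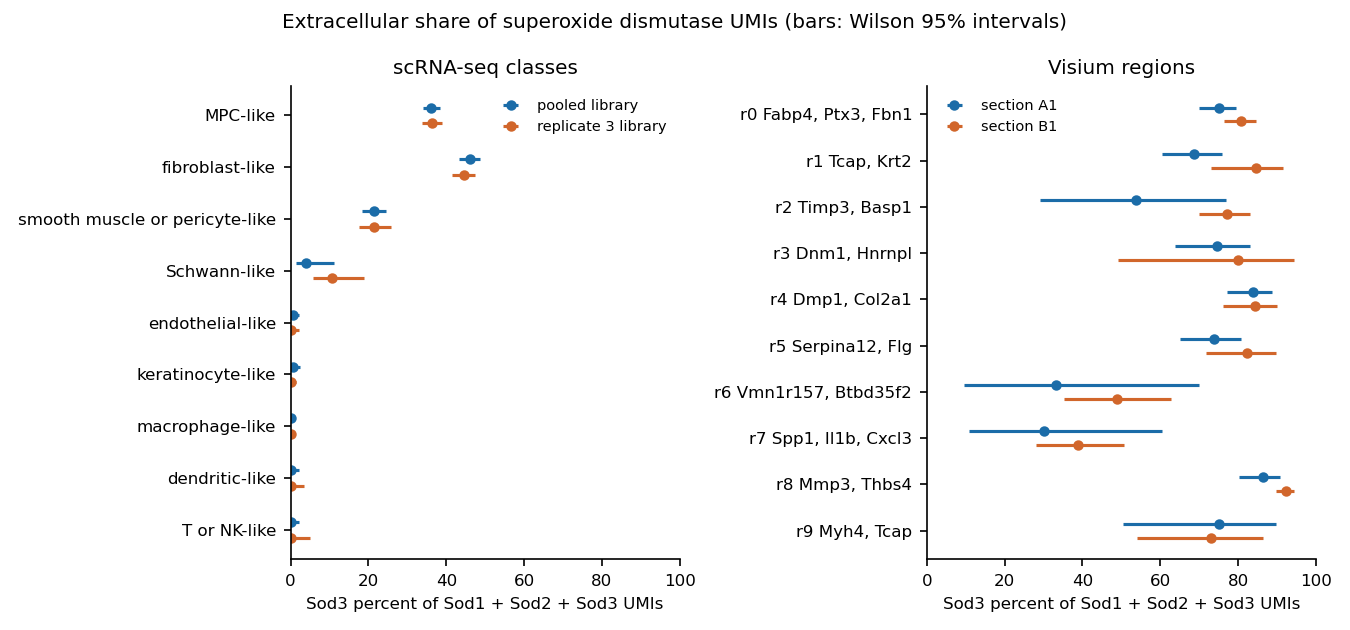
Sod3 UMIs as a percent of the UMIs of Sod1, Sod2 and Sod3 together, by cell class (left, 2 libraries) and by tissue region (right, 2 sections), on axes from 0 to 100. Bars are Wilson 95% intervals. The share is highest in fibroblast-like cells at 46.0% and 44.5% among the classes. Among the regions it is highest in the Mmp3 and Thbs4 region at 86.4% and 92.25%, with intervals that overlap those of the cartilage and bone region.

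Among the enzymes that remove peroxide, catalase was low in all classes. Macrophage-like cells (44.5 and 81.6 CPM), Schwann-like cells (73.3 and 52.4 CPM) and keratinocyte-like cells (43.0 and 70.7 CPM) formed an upper group whose ranges overlapped. Smooth muscle or pericyte-like (29.7 and 34.6 CPM), fibroblast-like (34.0 and 28.0 CPM) and MPC-like cells (30.6 and 30.4 CPM) stood below them, and T or NK-like, endothelial-like and dendritic-like cells ranged from 14.2 to 28.7 CPM. The Schwann-like values rested on 23 and 18 UMIs.

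The intracellular Gpx1 was highest in myeloid cells. Macrophage-like cells held 993 and 843 CPM and dendritic-like cells 851.5 and 647 CPM, with overlapping ranges that lay above endothelial-like cells at 579 and 535 CPM. In dendritic-like cells the red cell marker list was at 4509 and 48.4 CPM, higher in the library with more Gpx1, and its part in the level was not tested. Keratinocyte-like cells followed at 397 and 401 CPM. MPC-like (332.5 and 379 CPM), smooth muscle or pericyte-like (372 and 308 CPM), T or NK-like (287 and 375 CPM) and fibroblast-like cells (310.1 and 317.5 CPM) came next, with MPC-like above fibroblast-like cells in both libraries, and Schwann-like cells were lowest at 264.6 and 264.8 CPM.

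The secreted Gpx3 was also counted mainly in mesenchymal classes. MPC-like cells held 809.8 and 613 CPM and fibroblast-like cells 792 and 347 CPM, so that the classes overlapped and the fibroblast-like level differed between the libraries by more than the counting error. Smooth muscle or pericyte-like cells were at 73.2 and 65.8 CPM and macrophage-like cells at 17.3 and 13.85 CPM. No other class exceeded 11.4 CPM in either library. Beside the macrophage-like value, 12 and 13 of the 14 MPC markers were detected and summed to 59.0 and 50.8 CPM in the same cells, with Mkx at 0 in both libraries and Pdgfra at 0 in the pooled one, and the part of RNA from other cells in it was not tested. MPC-like cells held 61.3% and 71.9% of all Gpx3 UMIs. The unnamed cells led by Col2a1 and Col9a3 held 687 and 996 CPM from 16 and 6 cells.

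Gpx3 made up 70.9% and 61.8% of the summed Gpx1 and Gpx3 UMIs in MPC-like cells and 71.9% and 52.2% in fibroblast-like cells. The share was 16.4% and 17.6% in smooth muscle or pericyte-like cells and 1.72% and 1.62% in macrophage-like cells. The secreted glutathione peroxidase and the secreted dismutase were therefore counted in the same mesenchymal classes. Sod3 was higher in fibroblast-like than in MPC-like cells in both libraries, whereas the ranges of Gpx3 overlapped.

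Prdx1 was abundant in every class. It was highest in macrophage-like cells at 756 and 1386 CPM, a difference between the libraries of more than their counting error, and MPC-like cells followed at 718 and 744 CPM. Schwann-like (666 and 707 CPM) and keratinocyte-like cells (704 and 626 CPM) came next, above smooth muscle or pericyte-like (557 and 574 CPM) and fibroblast-like cells (528 and 559.7 CPM). Endothelial-like cells held 449.8 and 472 CPM, and T or NK-like (284 and 332 CPM) and dendritic-like cells (310.5 and 299 CPM) were lowest. Fibroblast-like cells were below MPC-like cells in both libraries, the reverse of their order for Sod3.

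Hmox1 was highest in macrophage-like cells by a wide margin. Macrophage-like cells held 613 CPM (1060 UMIs) and 516 CPM (671 UMIs), and no other class exceeded 48.7 CPM in either library. Endothelial-like cells were at 43.8 and 37.8 CPM, smooth muscle or pericyte-like cells at 48.7 and 27.9 CPM, fibroblast-like cells at 34.5 and 33.6 CPM and MPC-like cells at 31.3 and 32.9 CPM, and the last 4 classes were between 4.72 and 32.0 CPM. Macrophage-like cells held 51.2% and 53.5% of all Hmox1 UMIs with 6.79% and 6.70% of all UMIs. With every cell thinned to 2000 UMIs, 44.4% and 35.0% of macrophage-like cells had an Hmox1 UMI, against 5.95% and 9.03% of MPC-like cells and 0% and 2.22% of T or NK-like cells, whose 116 and 45 cells had unthinned shares of 2.59% and 4.44%.

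The macrophage-like class was made of 2 clusters. The one led by Mrc1, Ms4a7 and C1qa (120 and 75 cells) held Hmox1 at 652.5 and 529 CPM, Gpx1 at 930.3 and 795 CPM and Prdx1 at 700.0 and 1338 CPM. The one led by Aif1, Pf4 and Lst1 (68 and 35 cells), whose cells had a median of 0.064 of their libraries' median UMI count, held Hmox1 at 251 and 345 CPM, Gpx1 at 1567 and 1492 CPM and Prdx1 at 1268 and 2026 CPM. Hmox1 was thus higher in the deeper cluster in both libraries, and Gpx1 and Prdx1 in the shallow one. Unnamed cells led by Chil3, F10 and Clec4e held Hmox1 at 314 and 160 CPM, Gpx1 at 1291 and 1065 CPM and Sod2 at 435 and 214 CPM, so that their Sod2 was above the smooth muscle or pericyte-like class in both libraries.

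Across the 18 sums of 9 classes in 2 libraries, the log2 profiles of Sod3 and Gpx3 had a Pearson r of 0.799, the highest of the 28 pairs of members. Cat and Prdx1 had 0.778 and Prdx1 and Hmox1 0.603, and the lowest was Sod3 with Gpx1 at -0.618. These values describe 18 sums that share 2 libraries and 9 classes. Of 6367 genes compared in the same way, those most like Sod3 were Galnt16 and Adamts2 (r = 0.98 each) and Rian (0.977), and those most like Gpx3 were Srpx2 (0.946), C1qtnf2 (0.945) and Lrrc15 (0.943). For Hmox1 they were Ctsb (0.901), Lgmn (0.9) and Zfp655 (0.878), for Sod1 Bst2 (0.965), Gnai2 (0.963) and Ddx58 (0.921), and for Sod2 Tiparp (0.845), Rab14 (0.764) and Cebpb (0.75). For Gpx1 they were Ube2q1, Nsf and Atp7a (0.915 each), for Cat Egr2 (0.882), Cpeb2 (0.84) and Snx27 (0.816), and for Prdx1 Lamp1 (0.873), Egr2 (0.868) and Napa (0.866).

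In the Visium sections, which count probe ligation products in spots that can hold several cells, 10 regions were found by clustering without the members and are called by their leading genes. In such summed tissue, fewer cells of a type and less RNA per cell cannot be told apart, and levels of different genes also depend on their probes. A region led by Mmp3, Thbs4 and S100a4 (136 spots in section A1 and 154 in section B1) carried the most wound mesenchyme markers, whose summed level there was 12850 and 14650 CPM. The region led by Fabp4, Ptx3 and Fbn1 (700 and 636 spots) had as many of these markers among its leading genes, and the choice between them, by MPC markers, was made after the data were seen. By the rule used to name clusters, the Fabp4 and Ptx3 region took the wound mesenchyme name. The Mmp3 and Thbs4 region took no name, with 3 wound mesenchyme and 2 MPC markers. The region led by Spp1, Il1b and Cxcl3 (44 and 248 spots) carried the most myeloid markers, with the neutrophil list at 13120 and 13430 CPM against 464 to 1689 CPM in all other regions and only Retnlg at 0, in section A1, and the macrophage list at 1026 and 866 CPM, inside its range of 320.5 to 1116 CPM elsewhere.

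Sod3 was the member with the clearest place in the tissue. It stood at 550.0 CPM in section A1 (140 UMIs) and 1446 CPM in section B1 (476 UMIs) in the Mmp3 and Thbs4 region, where it was itself the fourth of the leading genes although it had not been used for clustering. The cartilage and bone region led by Dmp1 and Col2a1 held 531 and 386 CPM, the Fabp4 and Ptx3 region 348 and 453 CPM and the region led by Tcap and Krt2 278 and 437 CPM. Low levels were 154.5 CPM (2 UMIs) and 142.8 CPM in the region led by Vmn1r157 and Btbd35f2 and 90.5 CPM (3 UMIs) and 137 CPM in the Spp1 and Il1b region. The region led by Timp3 and Basp1 was low in A1 only, at 145.5 CPM (7 UMIs). In B1 it stood at 341 CPM, above the region led by Serpina12 and Flg at 276 CPM. Both sections placed Sod3 highest in the Mmp3 and Thbs4 region, but in section A1 it exceeded the cartilage and bone region by less than the counting error. Its lowest value in both was that of the Spp1 and Il1b region, which differed from that of the Vmn1r157 and Btbd35f2 region by less than the counting error. Spots of the Mmp3 and Thbs4 region also held 3.814 times their sections' median UMIs.

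**Figure D3:**
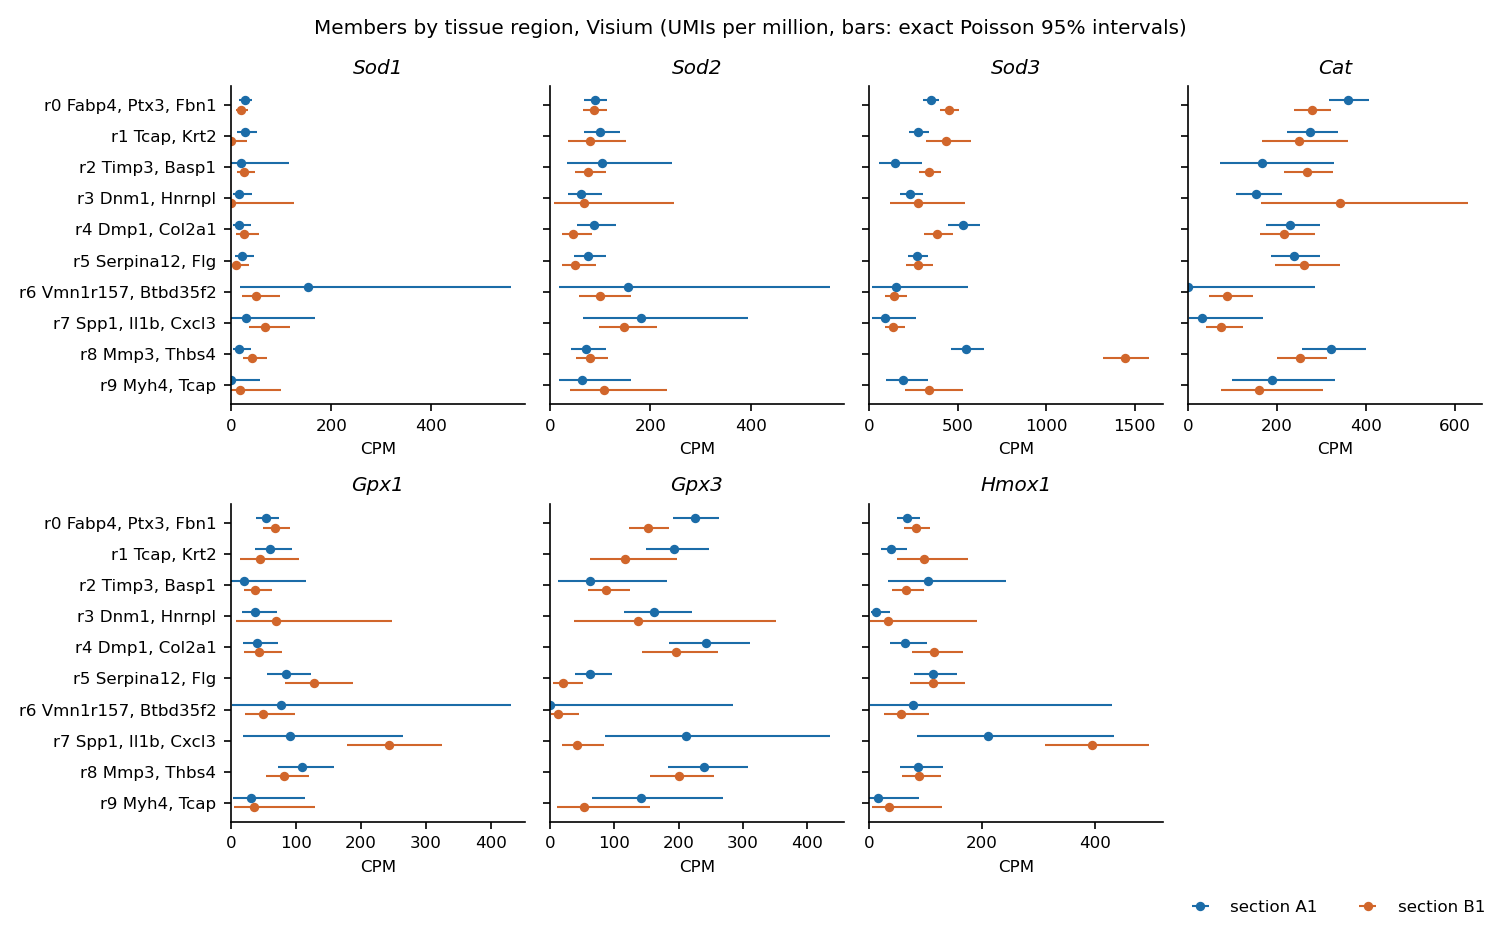
Level of the 7 genes measured in the Visium sections by tissue region, in CPM of the region (linear axes that start at 0 and differ between panels). Points are sections A1 and B1, bars are exact Poisson 95% intervals, and regions carry the names of their leading genes. Sod3 is highest in r8 at 550.0 and 1446 CPM, Hmox1 in r7 at 211 and 396 CPM, and the intervals of Sod1 and Sod2 overlap in most regions.

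The Sod3 share of dismutase UMIs was 86.4% (Wilson 95% interval 80.3 to 90.9) and 92.25% (89.6 to 94.3) in the Mmp3 and Thbs4 region. It was 83.75% (77.25 to 88.7) and 84.3% (76.2 to 89.9) in the cartilage and bone region, whose intervals overlapped these in both sections. A high share was not particular to these regions. It was 75.0% and 80.7% in the Fabp4 and Ptx3 region, 73.7% and 82.35% in the epidermal region led by Serpina12 and Flg, and 75.0% and 73.1% in the Myh4 muscle region. In the Spp1 and Il1b region 3 of 10 dismutase UMIs were Sod3 in section A1 and 26 of 67 (38.8%) in section B1. The 3 dismutases have different probes, so these shares are set only against each other and not against those of cells. The Mmp3 and Thbs4 region held 18.0% and 41.1% of all Sod3 UMIs with 11.3% and 14.3% of all UMIs.

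Sod3 was lower with distance from the Mmp3 and Thbs4 region. In section A1 it was 550.0 CPM inside, 496 CPM at 1 spot step, 429 CPM at 2, 329 CPM at 3 to 4, 248 CPM at 5 to 8 and 238 CPM at 9 or more. In section B1 it was 1446, 599.8, 402, 303, 271 and 311 CPM at the same distances. The level was lower at each further distance up to 5 to 8 steps in both sections, while median UMIs per spot also went from 1772 to 339 in A1 and from 1899.5 to 390 in B1, and the part of depth in the gradient was not tested. Around the Spp1 and Il1b region the order was the opposite near the border, with Sod3 at 90.5 CPM inside and 290.1 CPM at 3 to 4 steps in A1, and 137 and 699 CPM in B1.

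**Figure D4:**
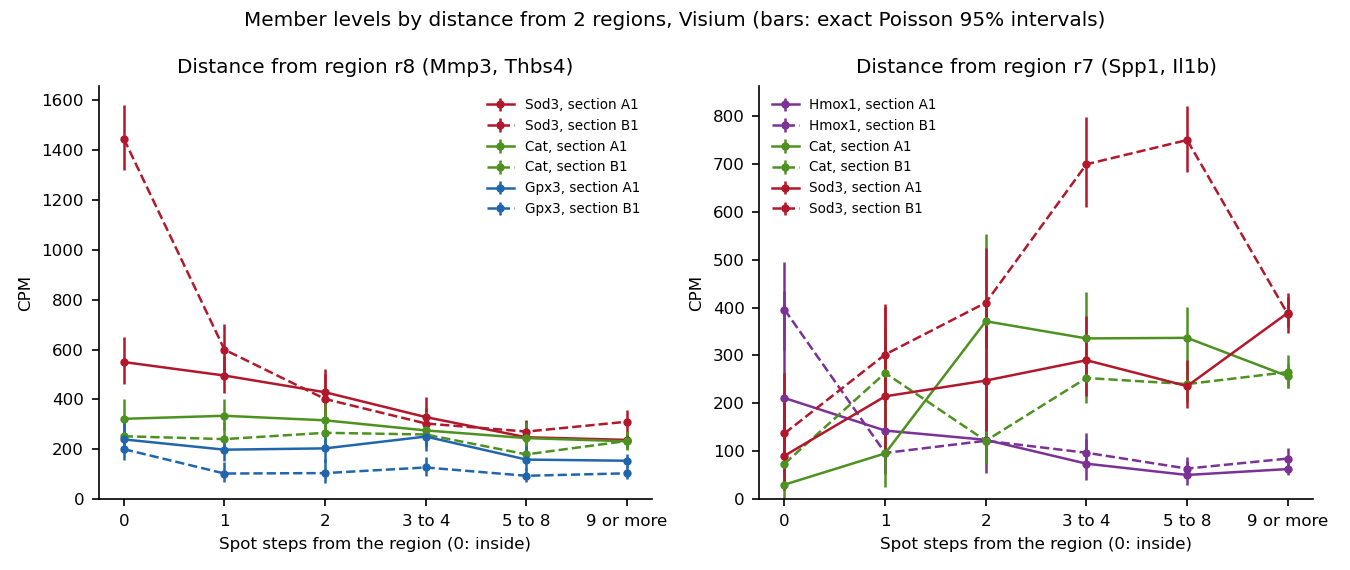
Levels of 4 members (CPM) against distance in spot steps from the Mmp3 and Thbs4 region (left) and from the Spp1 and Il1b region (right), with solid lines for section A1, dashed lines for section B1 and exact Poisson 95% bars. Sod3 goes from 550.0 and 1446 CPM inside the first region to 238 and 311 CPM at 9 or more steps, and Hmox1 from 211 and 396 CPM inside the second region to 62.7 and 84.6 CPM.

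Hmox1 was highest in the Spp1 and Il1b region at 211 CPM (7 UMIs) and 396 CPM (75 UMIs). The epidermal region led by Serpina12 and Flg, at 112.5 and 113 CPM, and the cartilage and bone region, at 63.4 and 114.6 CPM, overlapped below it, and the Myh4 muscle region (15.8 and 35.6 CPM) and the region led by Dnm1 and Hnrnpl (12.5 and 34.3 CPM) were lowest. At 1 step from the Spp1 and Il1b region Hmox1 was 143 CPM in A1 and 96.4 CPM in B1, and at 5 to 8 steps 50.4 and 63.7 CPM. The difference at the border was outside the counting intervals in B1 and inside them in A1, where 7 UMIs gave an interval of 84.9 to 435 CPM. The macrophage list did not stand out in this region and the neutrophil list did, as given above, and neutrophil-like cells kept without a ribosomal filter held 123 and 107 CPM of Hmox1 in the scRNA-seq data.

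Gpx3 was highest in the Mmp3 and Thbs4 region (239.6 and 200.5 CPM), the cartilage and bone region (242 and 195 CPM) and the Fabp4 and Ptx3 region (225 and 152 CPM), whose ranges overlapped. Its lowest values were in the Vmn1r157 and Btbd35f2 region, at 0 CPM (interval 0 to 285) and 12.4 CPM (2 UMIs). The A1 interval is too wide to place that region. Gpx3 was also low in the epidermal region, at 62.5 CPM (20 UMIs) and 19.7 CPM (4 UMIs). In the Spp1 and Il1b region the sections differed, at 211 CPM (7 UMIs) and 42.2 CPM (8 UMIs). Cat was at 359 and 278 CPM in the Fabp4 and Ptx3 region, 322 and 252 CPM in the Mmp3 and Thbs4 region and 154 and 343 CPM in the Dnm1 and Hnrnpl region, and the order of these 3 differed between the sections. Cat was low in the Spp1 and Il1b region at 30.2 CPM (1 UMI) and 73.9 CPM (14 UMIs). The Vmn1r157 and Btbd35f2 region, at 0 and 87.0 CPM, was below it in A1 and above it in B1. In A1 the intervals of these regions, 0.764 to 168 CPM and 0 to 285 CPM, overlapped those of other regions. The Spp1 and Il1b region was thus low in Cat and high in Hmox1 in section B1. Section A1 went the same way on 1 Cat UMI and 7 Hmox1 UMIs, whose intervals overlapped those of other regions.

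Gpx1 reached 90.5 CPM (3 UMIs, interval 18.7 to 264) and 243 CPM (46 UMIs) in the Spp1 and Il1b region. It was at 84.4 and 128 CPM in the epidermal region and 110.0 and 82.0 CPM in the Mmp3 and Thbs4 region, with overlapping ranges. Sod2 was highest in the Spp1 and Il1b region at 181 CPM (6 UMIs, interval 66.4 to 394) and 148 CPM (28 UMIs), but all neighbouring regions overlapped. Sod1 was close to the detection limit, with 51 and 66 UMIs in the whole of each section against 776 and 1158 for Sod3, and in section A1 the counting intervals of the regions overlapped. In section B1 it was at 68.6 CPM (13 UMIs, interval 36.5 to 117) in the Spp1 and Il1b region, apart from the intervals of the Fabp4 and Ptx3 region (20.4 CPM, 10.9 to 34.9) and the epidermal region (9.86 CPM, 1.19 to 35.6).

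Moran's I, which the authors deposited for each gene and which is 0 or slightly below for values without spatial order, was highest for Sod3 in both sections. Sod3 was at 0.0757 and 0.164, ranks 122 of 19132 genes and 76 of 19222. Hmox1 followed at 0.0352 and 0.0487 and Gpx3 at 0.0333 and 0.0428, and Cat was at 0.0263 and 0.01825. Gpx1 differed between the sections, at 0.00326 in A1 (rank 5403) and 0.0382 in B1 (rank 631), and Sod1 and Sod2 lay between -0.00184 and 0.00188. These scores are over the same spots as the levels above and are no separate measurement.

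The wider redox pathway was examined with 52 other genes in 5 lists, chosen with earlier results of these data known, by edgeR's quasi-likelihood test with Benjamini-Hochberg adjustment over all genes tested. In MPC-like cells against the mean of the other classes, 15 of 47 genes tested were higher, beside 31.4% of all 12606 genes, and 14 were lower, beside 14.1% of all genes. The share that was higher (31.9%) was near that background, and the share that was lower (29.8%) was above it. The median log2 difference was 0.07 over the pathway genes and 0.10 over all genes. Of the peroxiredoxin and thioredoxin cycle 6 of 12 genes were higher and 1 was lower, and of the NADPH oxidases and other superoxide sources 1 of 8 was higher and 5 were lower.

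Gpx8 and Gpx7, glutathione peroxidase family members of the endoplasmic reticulum, had the largest increases in MPC-like cells. Gpx8 was at 251 and 226 CPM there, 214 and 232 CPM in fibroblast-like cells and 0 in both libraries in macrophage-like cells, and its log2 difference was 6.25 ± 0.19 (SE, edgeR adjusted p = 2.13e-13). Gpx7 was at 207 and 188 CPM in MPC-like cells, with a log2 difference of 5.34 ± 0.17 (edgeR adjusted p = 2.83e-14). Nox4, an NADPH oxidase of mesenchymal cells that makes hydrogen peroxide, was higher by 4.42 ± 0.37 (edgeR adjusted p = 6.58e-08). The phagocyte oxidase genes were lower, Cybb with a log2 difference of -3.71 ± 1.09 (edgeR adjusted p = 0.00897), Ncf1 of -3.40 ± 0.67 (adjusted p = 0.000331) and Ncf4 of -3.18 ± 0.79 (adjusted p = 0.0026). These fitted differences are set against classes at or near 0 UMIs and depend on the prior count, so their size is no bound. For Gpx8 the log2 differences taken within each library, with a prior count added, were 4.77 and 4.66. Both lie below the fitted value by far more than its SE, which does not cover this dependence.

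In fibroblast-like cells 15 of 47 pathway genes were higher, beside 29.3% of all genes, and 6 were lower, beside 10.7%. Both shares (31.9% and 12.8%) were near the background. Gpx8 (log2 difference 6.18 ± 0.20, edgeR adjusted p = 3.99e-13), Nox4 (5.45 ± 0.34, 32.1 and 40.2 CPM) and Gpx7 (4.89 ± 0.19) led again. Ncf4 (-2.79 ± 0.85) and Txnip, an inhibitor of thioredoxin (-1.37 ± 0.17, 40.5 and 46.1 CPM), were lower.

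In macrophage-like cells 24 of 47 pathway genes were higher, beside 23.4% of all genes, and 7 were lower, beside 13.3%. The share of higher genes (51.1%) was above the background and the median log2 difference was 0.73 over the pathway genes and -0.08 over all genes. Of the NADPH oxidase list 7 of 8 genes were higher and the other did not pass the test, and of the heme breakdown, iron storage and metallothionein list 6 of 7 were higher and Mt2 was lower. Cybb, the catalytic subunit of the phagocyte NADPH oxidase, was at 414.5 and 307 CPM in macrophage-like cells and 0.853 and 0 CPM in MPC-like cells, a log2 difference of 6.93 ± 0.28 (edgeR adjusted p = 2.77e-13). Its cytosolic partner Ncf4 differed by 6.04 ± 0.24. Prdx4 of the endoplasmic reticulum (-1.01 ± 0.17), Ccs, the copper chaperone of Sod1 (-0.93 ± 0.19), and Mt2 (-0.92 ± 0.28) were lower, with edgeR adjusted p of 0.000104, 0.000478 and 0.0127. The count of lower genes was 2 without the ribosomal filter and 4 with MPC-like and fibroblast-like cells as 1 class. Cybb and Hmox1 thus stood high in a class in which no Sod3 UMI was counted.

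**Figure D5:**
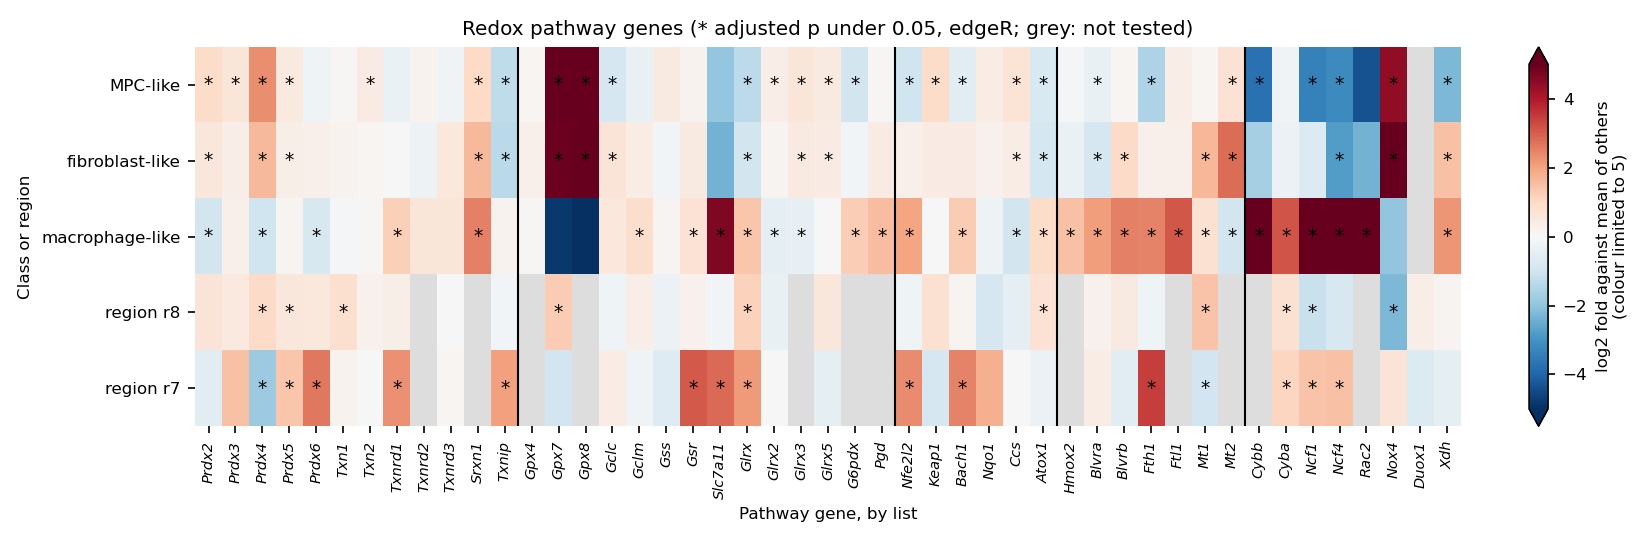
Log2 difference of the redox pathway genes tested that are reported here, by list (vertical lines part the lists), in 3 cell classes against the mean of the other classes and in 2 Visium regions against the mean of the other regions. Colours are limited to 5 in either direction, stars mark an edgeR adjusted p under 0.05 and grey marks genes not tested. Starred genes of macrophage-like cells are mostly higher, with 7 lower, and Gpx7, Gpx8 and Nox4 are darkest in MPC-like and fibroblast-like cells.

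In the Mmp3 and Thbs4 region of the sections 8 of 35 pathway genes were higher, beside 10.7% of all 10473 genes, and 2 were lower, beside 2.43%. For the sections the fit took the spread, shared over genes, as known, and the p-values carry that limit. Mt1, a metallothionein that binds zinc and copper, was at 1622 and 2686 CPM (log2 difference 1.44 ± 0.18, edgeR adjusted p = 4.26e-13), and Gpx7 was at 141 and 182 CPM (1.25 ± 0.26, adjusted p = 6.61e-05). Glrx was higher by 1.14 ± 0.41 (adjusted p = 0.0447), and Nox4 (-2.26 ± 0.77, adjusted p = 0.03) and Ncf1 (-1.09 ± 0.30, adjusted p = 0.00391) were lower. Nox4 rested on 2 and 1 UMIs (7.86 and 3.04 CPM) in this region, and it was higher, not lower, in fibroblast-like cells of the scRNA-seq data. With DESeq2 in place of edgeR 2 genes were higher and 1 was lower, with the tied Fabp4 and Ptx3 region 2 were higher and 0 lower (0 at an unadjusted p under 0.05 too), and with no filter on low counts 0 were lower (2 at an unadjusted p under 0.05).

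In the Spp1 and Il1b region 13 of 35 pathway genes were higher, beside 10.2% of all genes, and 2 were lower, beside 5.70%. Fth1, the heavy chain of the iron store ferritin, was at 18670 and 17900 CPM (log2 difference 3.47 ± 0.16, edgeR adjusted p = 6.89e-100). The fit took the spread, shared over genes, as known, so a p of this size does not measure how well 2 sections agree. Gsr, which regenerates glutathione, was at 422 and 522.5 CPM (3.05 ± 0.27), and Slc7a11, the cystine importer for glutathione synthesis, at 121 and 179.5 CPM (2.85 ± 0.46). Prdx4 (-1.80 ± 0.51) and Mt1 (-0.94 ± 0.26) were lower by edgeR, while DESeq2 called 0 genes lower (1 at an unadjusted p under 0.05). The neutrophil markers of this region, given above, move with these genes, and their part in the result was not tested.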

How the data were processed

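Raw UMI counts were deposited by the authors for 2 scRNA-seq libraries (Cell Ranger 5.0.1, mm10) and 2 Visium sections (Space Ranger 2.0.1, per the file headers). A deposited table also gave Moran's I, a spatial score, computed per gene by the Space Ranger software. The members and lists were chosen with earlier results of these data known.

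Barcodes entered as cells when 200 or more genes were seen, mitochondrial UMIs made up no more than 20%, ribosomal protein UMIs no less than 5%, and genes and UMIs stayed below the 99 percentile. Spots needed 100 UMIs. Cells (30 principal components) and spots (20) were clustered in Seurat 5.3.0 on 2000 variable genes at resolution 0.8, without 60 member and pathway genes. A cluster was named where at least 3 markers of a class were among its 50 leading genes, with at least 2 more than any other class. Scrublet called 4 and 3 doublets, which were kept. Red cell markers summed to 27.5 to 15700 CPM over the 9 classes, most in T or NK-like cells (7937 and 15700 CPM), and the part of free RNA was not tested.

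UMIs were summed per sample and class or region. Pathway genes were tested in edgeR 4.0.16 (quasi-likelihood, TMM, filterByExpr, sample as a block because classes of 1 library come from the same cell suspension), and DESeq2 1.42.0 was an alternative. Classes were formed from the same cells that were tested, so the p-values are too small to that extent. The SE of a log2 difference was calculated back from the test, as the difference over the square root of its F statistic. For the sections, p-values followed the normal curve for the log2 difference over this SE. The spread, shared over genes, was thus taken as known, and these p-values overstate what 2 sections can show. The test was tried on simulated counts. Named pathway genes were up to 3 higher and 3 lower per comparison past an adjusted p of 0.05, with the same direction in both samples, and 1 gene of a pathway list and the coding start of 1 member are not reported here. Log2 levels of members used a pseudocount of 1 CPM. Intervals are at 95%, and a limit given for a level of 0 is the upper end of its interval. The detection floor was set at 3 counts. Versions were R 4.3.3, Python 3.11.15, scanpy 1.11.5 and scipy 1.17.1.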

Additional observations from a re-analysis of the deposited data

Results flagged for a closer look

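Some values came from barcodes that no comparison used, and they are listed because more than 3 UMIs of a member were counted in them in both libraries. Without the ribosomal filter, 39 and 20 neutrophil-like cells appeared, with Sod2 at 308.3 and 486.5 CPM, above each class of the comparison, Gpx1 at 667 and 391.6 CPM and Hmox1 at 123.3 and 106.8 CPM. In 13 and 8 red blood cell-like barcodes, Gpx1 was at 3271 and 3489 CPM and Cat at 155.3 and 161.8 CPM, above each of the 9 classes. Among the 806 and 305 barcodes with under 200 genes, Gpx1 was at 219.9 and 202.4 CPM, Cat at 18.6 and 18.13 CPM, Prdx1 at 8.834 and 8.307 CPM and Sod2 at 6.044 and 4.531 CPM.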

How the results depend on the processing

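The counts of pathway genes and the Sod3 shares changed by less than 1.5 times, or less than the spread between samples, in 64 of 80 alternative values, and so did 53 of 61 for the members' leading log2 differences. The other 8 moved by more than that spread, and none changed sign. Without the ribosomal filter 2 pathway genes were lower in macrophage-like cells, and 4 with MPC-like and fibroblast-like cells as 1 class. What is called the wound mesenchyme region here was the Mmp3 and Thbs4 region in the main processing, to which the naming rule gave no name. Its higher and lower genes numbered 2 and 1 with DESeq2, and 8 and 0 with no filter on low counts (2 lower at an unadjusted p under 0.05). The region chosen in its place gave 1 and 1 with spots of at least 500 UMIs and 3 and 3 at resolution 0.4. The tied Fabp4 and Ptx3 region, which the rule did name wound mesenchyme, gave 2 and 0 (0 lower at an unadjusted p under 0.05). It was an alternative chosen after seeing the data. In the myeloid region DESeq2 called 0 lower (1 at an unadjusted p under 0.05). The cause was not tested. The Sod3 share was 43.7% in fibroblast-like and 32.7% in MPC-like cells gated 1 by 1 by marker UMIs, 35.7% in MPC-like cells without the ribosomal filter, 34.7% in them and 84.1% in the wound mesenchyme region at resolution 0.4. Leaving out 1 library gave 44.5% to 46.0% in fibroblast-like and 36.1% to 36.2% in MPC-like cells, and leaving out 1 section 86.4% to 92.2% in the wound mesenchyme region. Without the replicate block 6 genes were higher in the wound mesenchyme region and 14 in MPC-like cells, and it changed no count by over 1.5 times. Fits without 1 library or section have no residual degrees of freedom, and the myeloid region with at least 500 UMIs had 19 spots in section A1, so neither was run. Depth limits Sod1 in the sections (51 and 66 UMIs) and regions with few spots.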
